A study of Arabidopsis thaliana with 6 samples.

Results

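The ATG8 family of Arabidopsis thaliana comprises small ubiquitin-like proteins that are joined to the lipid phosphatidylethanolamine on the growing autophagosome, the double membrane that encloses cytoplasm for breakdown in the vacuole. There they help the membrane to expand and bind the adaptor proteins that bring in cargo. In leaves autophagy is known for recycling nutrients during carbon or nitrogen shortage and in senescence. Most ATG8 proteins are made as precursors whose C-terminal end is trimmed by the protease ATG4 before conjugation, whereas ATG8H and ATG8I end at the exposed glycine.

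Members were selected on gene symbol, as the probe sets naming a single gene with a symbol ATG8, or the older APG8, and a letter from A to I, and where a gene had several probe sets the one to keep was chosen by its mean signal over the arrays. All 9 members were found among the 16129 probe sets with deposited signals, which are the ones meant by all probe sets below. Each member had 1 probe set, so the signal decided between none. The family itself was picked out with its differences between treatments known, and those differences are given as a description. The probe set with the old symbol APG8H lies in the gene AT3G15580, whose synonyms include ATG8I, and is called ATG8I here. ATG8A (AT4G21980) likewise carries the old symbol APG8A. The other members were ATG8B (AT4G04620), ATG8C (AT1G62040), ATG8D (AT2G05630), ATG8E (AT2G45170), ATG8F (AT4G16520), ATG8G (AT3G60640) and ATG8H (AT3G06420). All 9 probe sets had the name ending of those designed to be unique, but whether their probes also bind transcripts of another member was not tested.

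The series asks how glycerol-3-phosphate (G3P), an intermediate of glycerolipid and sugar metabolism, delivered to a primary leaf changes transcripts in other leaves. Distal leaves of wild-type Columbia plants, 3 to 4 weeks old and grown at 22 degrees C, 65% humidity and 14 h of light, were taken 24 h after the primary leaf had received either leaf exudate with MgCl2 (mock) or the same with G3P added. Each group had 3 replicates from separate sets of plants, each read on its own Affymetrix ATH1 array, and both groups thus received exudate and an infiltration. Neither the dose of G3P nor the plants that gave the exudate are named in the labels. Whole leaves were profiled, so a change in the number of cells of a type and a change in RNA per cell cannot be told apart.

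Median signals of the arrays ran from 291 to 338. G3P replicate 3 stood apart, with correlations across all probe sets of 0.842 to 0.913 to the other arrays, which had 0.930 to 0.961 among themselves. On it 1223 probe sets fell more than 1 log2 unit beyond all other arrays, against 42 to 186 on each of those. Of 10 leaf mesophyll markers 5 had a named probe set, with log2 signals between 12.43 and 14.97 on all arrays. Their summed signal was 98891 to 118160 in mock leaves and 42978 to 99878 in G3P leaves, the lowest on G3P replicate 3. Of the epidermal and guard cell markers 2 of 5 had a named probe set. Their summed signal was 558 to 1002 in mock and 450 to 1292 in G3P leaves. For root, flower and vasculature 0 of 4 each had one. A gene without a named probe set, here and below, may still lie among the unnamed probe sets. Results are therefore also given without G3P replicate 3.

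All 9 ATG8 genes had a higher mean in G3P than in mock leaves, as did 46.5% of all probe sets. The family was picked out with these differences known, and without G3P replicate 1 only 5 of 9 were positive. None of the members passed the test. The groups overlapped for each of them, while 8.64% of all probe sets were free of overlap. The members varied together from array to array instead. They were high on G3P replicate 1 and mock replicate 3, and low on mock replicates 1 and 2 and G3P replicate 2. On G3P replicate 3 the family was divided. Values below are log2(signal + 16) unless stated, on which scale 4 is the lowest possible value, and the levels of different genes are not set against each other because probe sets differ in brightness.

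**Figure D1:**
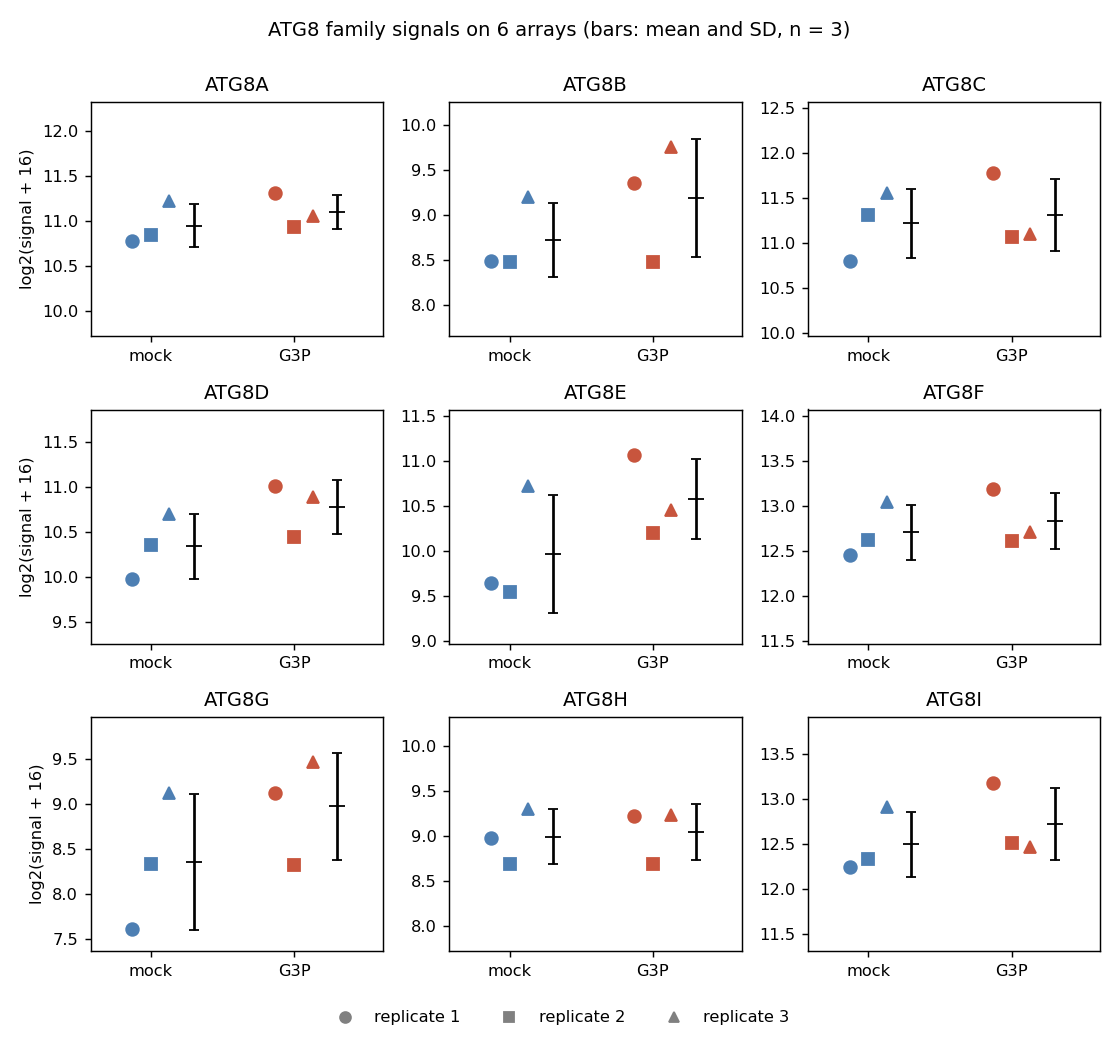
The 9 ATG8 genes are plotted as log2(signal + 16) on the 6 arrays, with mock in blue, G3P in red, a symbol for each replicate number, and the mean and SD (n = 3) beside each group. Each panel spans the same number of log2 units; mock and G3P points overlap in every panel, and the points of ATG8G are spread the most.

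The widest variation was in ATG8G, ATG8E and ATG8B. ATG8G had 7.61, 8.33 and 9.12 on mock replicates 1, 2 and 3, and 9.12, 8.32 and 9.47 on G3P replicates 1, 2 and 3. The range was 1.86 log2 units, and the signals themselves spanned 179 (mock replicate 1) to 693 (G3P replicate 3). The lowest mock array thus lay well below the others, and G3P replicate 2 lay within the mock range. The mock mean was 8.35 ± 0.76 and the G3P mean 8.97 ± 0.59 (SD, n = 3 each). The difference came to 0.62 ± 0.44 (SE), and to 0.37 without G3P replicate 3.

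ATG8E had 9.64, 9.54 and 10.72 on the mock arrays and 11.07, 10.20 and 10.45 on the G3P arrays, in the order of the replicates. Mock replicate 3 was above G3P replicates 2 and 3, while the other mock arrays were below all G3P arrays. The means were 9.97 ± 0.65 and 10.58 ± 0.45, and the difference was 0.61 ± 0.37 (SE), or 0.67 without G3P replicate 3.

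ATG8B had 8.49, 8.47 and 9.20 in mock and 9.35, 8.47 and 9.75 in G3P leaves. G3P replicate 2 matched the lower mock arrays, and the highest value was on G3P replicate 3. Its difference was 0.47 ± 0.37 (SE) with that array and 0.19 without it.

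ATG8D had 9.98, 10.36 and 10.70 on the mock arrays and 11.01, 10.44 and 10.89 on the G3P arrays. Only mock replicate 3 exceeded a G3P array. The difference was 0.43 ± 0.26 (SE), with an unadjusted limma p of 0.134, the smallest in the family, and 0.38 without G3P replicate 3.

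ATG8A, ATG8C and ATG8F had smaller differences, of 0.15 ± 0.21, 0.09 ± 0.29 and 0.13 ± 0.24 (SE). Without G3P replicate 3 these were 0.17, 0.20 and 0.19. ATG8A had 10.77, 10.84 and 11.22 in mock and 11.30, 10.93 and 11.05 in G3P leaves, a range over arrays of 0.53, the narrowest in the family. ATG8C had 10.80, 11.31 and 11.55 in mock and 11.77, 11.06 and 11.10 in G3P leaves, so that mock replicates 2 and 3 stood above G3P replicates 2 and 3. Its ratio of medians, taken from signals without a pseudocount, was 0.866 and thus opposite in direction to its mean difference. ATG8F had 12.45, 12.62 and 13.05 in mock and 13.19, 12.61 and 12.71 in G3P leaves. For ATG8A, ATG8C and ATG8F alike, G3P replicate 1 was the highest array, mock replicate 3 the next and mock replicate 1 the lowest.

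Of the members that need no trimming by ATG4, ATG8I had 12.25, 12.33 and 12.91 in mock and 13.18, 12.51 and 12.47 in G3P leaves. G3P replicate 1 and mock replicate 3 were again the highest arrays. The difference was 0.22 ± 0.28 (SE), and 0.35 without G3P replicate 3. ATG8H had 8.98, 8.70 and 9.30 in mock and 9.23, 8.69 and 9.24 in G3P leaves, and was the only 1 of the 9 members whose highest array was a mock array. Its difference was 0.05 ± 0.26 (SE), and -0.04 without G3P replicate 3.

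The comparison of G3P with mock leaves was made with limma over all probe sets, with Benjamini-Hochberg adjustment. Of the 9 members 0 passed at an adjusted p under 0.05 (adjusted p between 0.912 and 0.979), with 0% of all probe sets called. At an unadjusted p under 0.05 limma found 0 members, beside 3.08% of all probe sets. The exact rank-sum test could give no call, since its two-sided p cannot go below 0.1 with 3 arrays in each group. The groups were free of overlap for 0 members, beside 8.64% of all probe sets. The median difference was 0.22 in the family and -0.03 over all probe sets, and the differences were positive for 9 of 9 members and for 46.5% of all probe sets. Since the family was picked out with these differences known, the count of positive differences supports nothing.

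The 95% intervals lay within 2-fold in either direction for 5 members, ATG8A, ATG8C, ATG8F, ATG8H and ATG8I. For ATG8B, ATG8D, ATG8E and ATG8G the upper bounds were 1.33, 1.03, 1.46 and 1.63, so a 2-fold rise was not excluded for them. The intervals carry no adjustment for multiple testing and hold on the scale with the pseudocount. These summaries depended on single arrays. Without G3P replicate 1 the median difference was 0.046 and 5 of 9 differences were positive. Without mock replicate 1 or mock replicate 2 the median was 0.099 and 0.14, with 8 positive in each case, and without mock replicate 3 it was 0.43. Without G3P replicate 3 it was 0.20, with 8 positive.

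**Figure D2:**
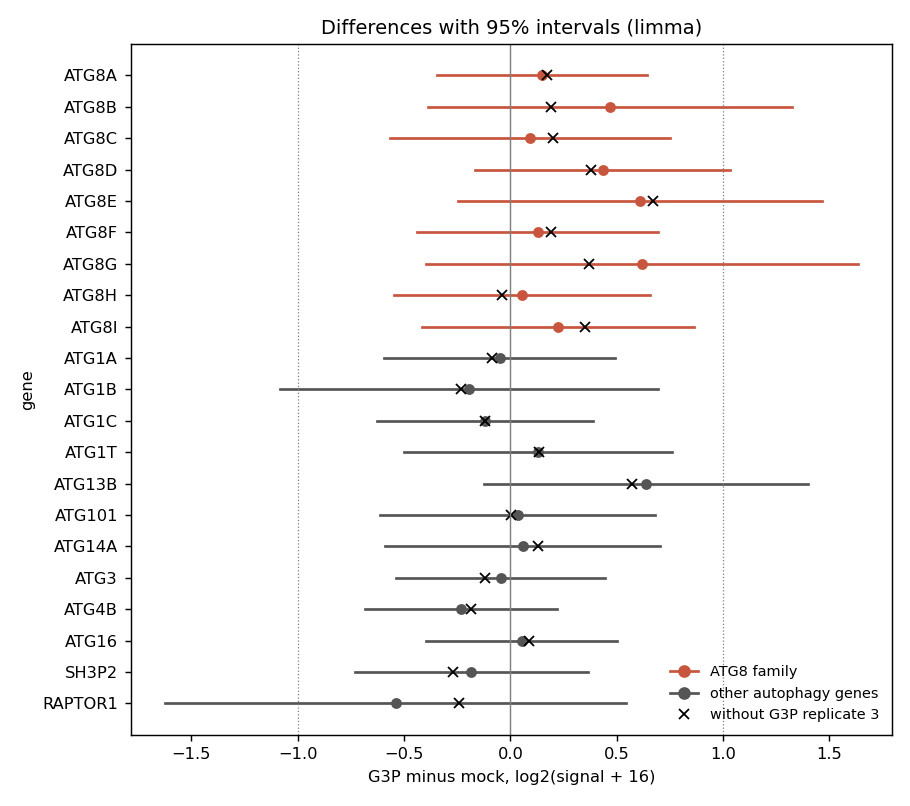
Points are differences of G3P minus mock in log2(signal + 16) with 95% limma intervals for the 9 ATG8 genes (red) and 12 other autophagy genes (grey), crosses are the differences without G3P replicate 3, and dotted lines mark 2-fold. All ATG8 points lie above 0, from 0.05 for ATG8H to 0.62 for ATG8G, and every interval includes 0.

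To show how the family moved across arrays, each member was centred on its own mean over the 6 arrays. The mean of the centred members was -0.46, -0.29 and 0.29 on mock replicates 1, 2 and 3, and 0.45, -0.21 and 0.22 on G3P replicates 1, 2 and 3. Mock replicate 3 and G3P replicate 1 each had 9 of 9 members above their own mean, whereas mock replicate 1 and G3P replicate 2 had 0 and mock replicate 2 had 1, namely ATG8C. Each treatment thus had arrays with high and with low ATG8 signals. Of the members 6 were highest on G3P replicate 1 and 6 were lowest on mock replicate 1.

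G3P replicate 3 had 6 members above their mean and the widest spread between members (SD 0.37, against 0.10 on mock replicate 3). ATG8B and ATG8G were highest of all there, while ATG8C, ATG8F and ATG8I were below their own means. The median of all probe sets was lowest on G3P replicate 1 (8.26), where the family was highest, and highest on mock replicate 1 (8.47), where it was lowest. The range of the family mean over arrays was 0.92, and it was 0.91 after quantile normalization and 1.12 after centring the arrays on their medians.

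**Figure D3:**
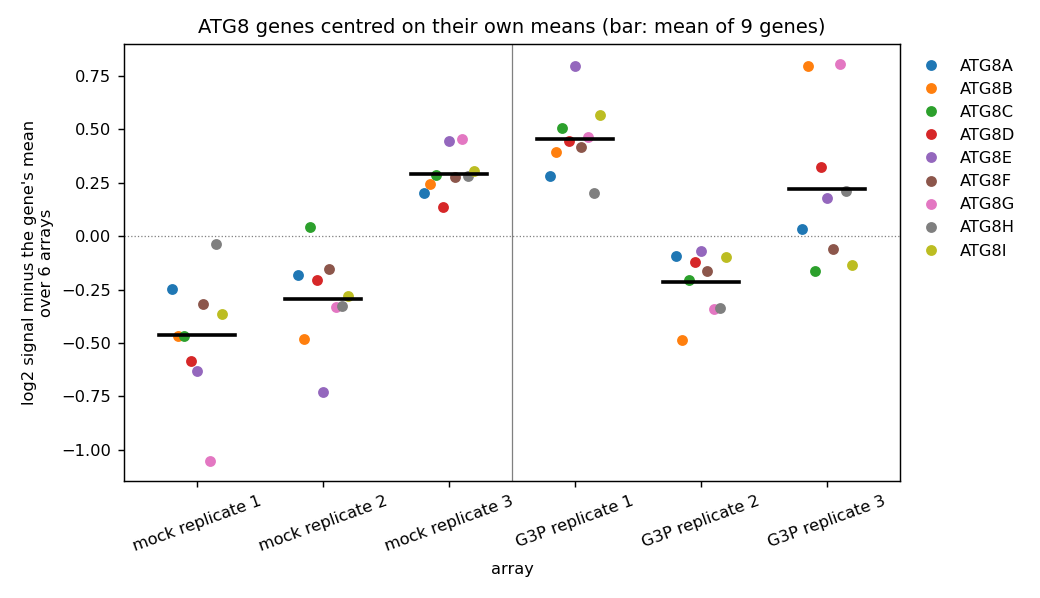
Each point is an ATG8 gene on an array, as its log2 signal minus its own mean over the 6 arrays, and bars are the mean of the 9 genes. The bars stand at 0.29 and 0.45 on mock replicate 3 and G3P replicate 1 and at -0.46 on mock replicate 1, and the points are spread most widely on G3P replicate 3.

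All 36 pairs of members correlated positively over the 6 arrays, with a median Pearson r of 0.782. The closest pairs were ATG8F with ATG8I (0.978), ATG8A with ATG8F (0.972) and ATG8A with ATG8E (0.969). ATG8B with ATG8C (0.444) and ATG8C with ATG8H (0.451) were the loosest. When each gene was centred on the mean of its treatment group, which removes the difference between mock and G3P, the median r was 0.804 and all 36 pairs were still positive. For comparison, the pairs of 4185 named probe sets with a mean signal above the median had a median r of 0.0070, and 50.4% were positive, and their median r was 0.0057 with the same centring. These values describe 6 arrays that all genes share, and no test was made on them.

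ATG8D with ATG8G (0.953) and ATG8B with ATG8G (0.912) were also close over the 6 arrays. Which members ATG8B followed most closely depended on G3P replicate 3. Without that array ATG8B had 0.875 with ATG8G and 0.975 with ATG8F, against 0.615 with ATG8F on all arrays. ATG8D then had 0.957 with ATG8G and 0.956 with ATG8I. Without G3P replicate 3 the median r over the 36 pairs was 0.924, and ATG8B with ATG8C had 0.873. ATG8H followed the other members least closely in that case (r = 0.731 to the mean of the other members), while the remaining 8 had 0.913 to 0.997.

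**Figure D4:**
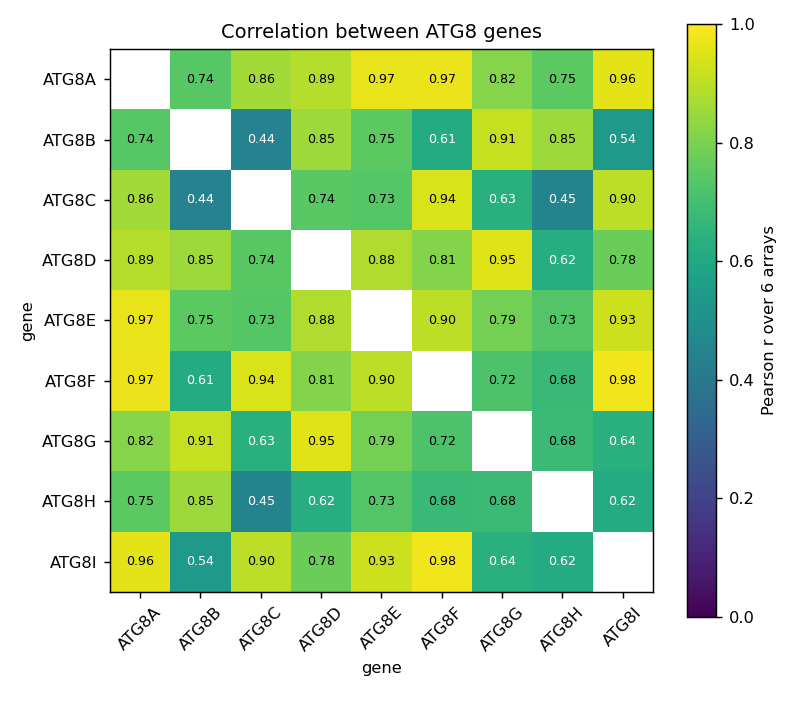
Colours and figures in the cells give Pearson r over the 6 arrays for each pair of ATG8 genes, on a scale from 0 to 1. All pairs are above 0; ATG8A, ATG8F and ATG8I form the closest group, and ATG8B with ATG8C is the lowest at 0.44.

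The probe sets whose pattern was most like the mean of the family were sought among the same 4185. The highest r were those of AT5G46030 (0.995), AT4G14615 (0.993), AT5G32440 (0.993), AT1G14340 (0.991) and AT1G01170 (0.991). AT5G46030 had 10.30, 10.54 and 11.03 in mock and 11.14, 10.60 and 10.97 in G3P leaves, high on the same arrays as ATG8A. None of these genes passed the test between treatments (limma, adjusted p between 0.912 and 0.913). The pattern was not rare, since 150 of the 4185 (3.58%) had an r over 0.9 and 101 (2.41%) one under -0.9.

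The pattern of the family was not seen in the mean of the other measured autophagy genes. Of 41 listed genes 12 could be named on the arrays, and 0 passed in either direction (limma, adjusted p between 0.912 and 0.990), beside 0% of all probe sets. At an unadjusted p under 0.05 there were also 0, beside 3.08% of all probe sets. Their differences were positive for 5 and negative for 7, beside 46.5% positive over all probe sets, with a median of -0.05. Their pairs had a median r of -0.036 and 42.4% were positive. The list was dimmer than the family. Only 5 of the 12 genes remained when the dimmest 50% of probe sets were removed, against 9 of 9 ATG8 members. How far signal level affects r was not tested. The mean of these genes, each centred on its own mean, stayed between -0.042 and 0.028 on the 6 arrays. That mean averages genes that moved in opposite directions, so it does not show that each was steady. Their r to the ATG8 mean ran from -0.918 for RAPTOR1 to 0.732 for ATG1T.

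Autophagy is started by the kinase ATG1 with its partner proteins, of which 6 of 8 had a named probe set. The kinase genes ATG1A, ATG1B and ATG1C had differences of -0.05 ± 0.23, -0.20 ± 0.38 and -0.12 ± 0.22 (SE), and ATG1T, a shortened form of the kinase, had 0.13 ± 0.27. ATG101, which binds ATG13, had 0.03 ± 0.28. ATG13B, the regulatory partner of ATG1, had 5.49, 6.21 and 6.17 in mock and 6.63, 6.43 and 6.72 in G3P leaves. All of its G3P arrays lay above all of its mock arrays, as for 4.27% of all probe sets, and the difference was 0.64 ± 0.33 (SE). It did not pass (limma, adjusted p = 0.912). Its signals were dim, and the size of the difference was 0.81 with a pseudocount of 1, 0.38 with one of 64 and 0.40 without mock replicate 1.

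Of the genes that process and conjugate ATG8, 3 of 9 had a named probe set. ATG4B, a protease that trims ATG8 and also releases it from the lipid, had 8.92, 8.92 and 8.96 in mock and 8.81, 8.69 and 8.61 in G3P leaves. Every G3P array was below every mock array, as for 4.37% of all probe sets, with a difference of -0.23 ± 0.20 (SE) that did not pass (limma, adjusted p = 0.912). ATG3, which passes ATG8 to the lipid, had -0.04 ± 0.21, and ATG16, a part of the complex that directs this transfer, had 0.05 ± 0.19. ATG3 had between 9.66 and 10.11 on all arrays, a range of 0.45. Over all 12 measured genes of the list the range over arrays ran from 0.30 for ATG16 to 1.75 for RAPTOR1, and in the ATG8 family from 0.53 for ATG8A to 1.86 for ATG8G.

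In the phosphoinositide kinase complex, which marks the membrane, ATG14A (1 of 5 with a named probe set) had 0.06 ± 0.28 (SE). SH3P2, a membrane-remodelling protein that binds ATG8 (1 of 5 receptors and adaptors), had -0.18 ± 0.24. None of the 10 listed genes of membrane delivery had a named probe set, and they were not analysed here.

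RAPTOR1 is the substrate-binding subunit of the TOR kinase complex that holds autophagy in check. Of 4 upstream kinase genes only RAPTOR1 had a named probe set. It had 8.28, 7.85 and 6.85 in mock and 6.97, 7.87 and 6.53 in G3P leaves. It was low on mock replicate 3 and G3P replicates 1 and 3, the arrays where the ATG8 mean was above 0, and high on the other 3. Its r to the ATG8 mean was -0.918 over the 6 arrays and -0.973 without G3P replicate 3. That was the lowest r in the autophagy list over the 6 arrays. Of the 4185 named probe sets above the median signal, 101 (2.41%) had an r under -0.9. RAPTOR1 was dimmer and not among those 4185, and the share among dimmer probe sets was not taken. The difference of RAPTOR1 between treatments was -0.54 ± 0.47 (SE), or -0.24 without G3P replicate 3. RAPTOR1 was among the dimmest 50% of probe sets, and the difference was -0.60 with a pseudocount of 1 and -0.42 with one of 64. A link between RAPTOR1 and ATG8 transcripts was not tested. ATG13B and ATG1T, with r of 0.705 and 0.732, were the closest of the list to the ATG8 mean in the positive direction.

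Of the leaf markers, RCA, the activase of Rubisco, also ran against the family (r = -0.878). It had 14.38, 13.96 and 13.86 in mock and 13.13, 14.06 and 13.36 in G3P leaves, lowest on G3P replicate 1. Without G3P replicate 3 its r was -0.875. The other 4 mesophyll markers had r between -0.479 and -0.103 over the 6 arrays. Without G3P replicate 3, LHCB4.1 had -0.586 but LHCB4.2, PSAN and PSBW had 0.138, 0.229 and 0.627, so the markers did not run one way. Of 9 senescence and carbon starvation genes only SAG101, a lipase-like senescence gene, had a named probe set. SAG101 had 7.99, 8.33 and 7.83 in mock and 7.45, 7.99 and 8.50 in G3P leaves. Its r was -0.400, or -0.805 without G3P replicate 3. The part of leaf composition or leaf age in the array-to-array variation of ATG8 was not tested.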

How the data were processed

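The deposited table gives 1 linear signal intensity per probe set and array. Per the submitters' processing notes these intensities came from Affymetrix Expression Console 1.0; neither the summarization nor the scaling is stated. Groups and replicate numbers came from the sample labels. Intensities were turned into log2(signal + 16) and used without further normalization; G3P and mock were compared in R 4.3.3 by limma 3.58.1 (lmFit, eBayes with a variance trend, all 6 arrays, no covariates), with Benjamini-Hochberg adjustment over 16129 probe sets and a threshold of 0.05. The number of arrays limits the precision. The design text names a rank-sum test with ratios of medians, whose exact two-sided p cannot go below 0.1 here, so it was an alternative. The fit was tested on simulated data.

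The platform annotation named 1 gene for 8950 probe sets, several for 339 and none for 6840, which are unnamed here; 8911 single genes matched RefSeq (TAIR10.1), used for names. As no genome build is named, coordinates are left out. No sequences were used here. Genes named were all ATG8 members, all measured genes of the autophagy list and the 5 probe sets most like the family. Members and lists were chosen with earlier results of these data known. Alternatives were array weights, the replicate block, quantile normalization, pseudocounts of 1 and 64, arrays centred on their medians, a filter removing the dimmest 50% of probe sets, unique probe sets, the rank-sum test and each array left out in turn. Mock and G3P arrays of the same number, after subtraction of group means, correlated at 0.0061, -0.102 and 0.314, and nothing in the labels says that numbers mark shared plants.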

Additional observations from a re-analysis of the deposited data

How the results depend on the processing

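No probe set, ATG8 member or listed autophagy gene passed under the main analysis, the 8 other limma fits of 6 arrays or with any single array left out, except that 7 of the 12 listed genes were not tested without the dimmest 50% of probe sets; the rank-sum test could give no call at this size. The replicate block left 0 members past the threshold and the median ATG8 difference at 0.22, and it changed no call. Over the limma fits of 6 arrays that median ran from 0.21 with quantile normalization to 0.32 with array weights, and from 0.046 to 0.43 with single arrays left out. The ratio of medians gave ATG8C a log2 value of -0.21, the 1 turned direction of a member in 81 values from 6 arrays. With single arrays left out the differences ran from -0.14 to 0.26 for ATG8C, -0.049 to 0.30 for ATG8F, -0.095 to 0.24 for ATG8H and -0.0041 to 0.43 for ATG8I; the other 5 members stayed positive but moved widely, from 0.046 to 0.29 for ATG8A, 0.19 to 0.83 for ATG8B, 0.25 to 0.61 for ATG8D, 0.36 to 0.98 for ATG8E and 0.25 to 1.001 for ATG8G. The median of the autophagy list was -0.0050 after centring on array medians, and -0.10 to 0.011 with single arrays left out. In that list 7 of 101 values from 6 arrays turned. With array weights ATG1A had 0.058, ATG1B 0.027 and ATG101 -0.089, and by ratios of medians ATG1A had 0.047, ATG101 -0.20, ATG3 0.010 and ATG16 -0.039. With single arrays left out the ranges that crossed 0 were -0.20 to 0.12 for ATG1A, -0.43 to 0.071 for ATG1B, -0.053 to 0.32 for ATG1T, -0.25 to 0.20 for ATG101, -0.031 to 0.17 for ATG14A, -0.14 to 0.085 for ATG3 and -0.020 to 0.099 for ATG16. The causes were not tested. The alternative of averaging several probe sets of a member was not run, since each had 1. The dimmest member signal was 179. With pseudocounts of 1 and 64 the median ATG8 difference was 0.23 and 0.22. ATG8G and ATG8B moved the most, with 0.65 and 0.54 for ATG8G and 0.48 and 0.43 for ATG8B. ATG8H, also dim, had 0.056 and 0.050. The 6 arrays limit what differences could be found.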
